A study of Homo sapiens with 32 samples.

Results

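AP-1 is a transcription factor built from pairs of FOS, JUN, ATF and MAF family proteins, and the stability of the messenger RNAs (mRNAs) of 10 of its subunits was examined: FOS, FOSB, FOSL1, FOSL2, JUN, JUNB, JUND, ATF3, MAFF and MAFG. The members were chosen by name, by matching the RefSeq row identifiers of the deposited decay rate tables to current symbols, and the rule itself uses no measured value. Of the 10, 4 (FOSL1, FOSL2, JUN and JUND) had decay rates in both cell lines, among 10829 genes with rates in both. FOS, ATF3 and MAFG had rates in MDA-LM2 only, and FOSB, JUNB and MAFF were not analysed here. Of the 7 members in the MDA-LM2 table, 3 (42.9%) thus had no rate in MDA-MB-231, against 7.52% of all 11709 genes in that table.

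The lines were MDA-MB-231, a long-established line of human breast cancer cells, and MDA-LM2, a derivative of it selected for metastasis to the lung. Cells grown in serum-supplemented medium were labelled for 2 h with 4-thiouridine (4sU), a uridine analogue that enters newly made RNA. The medium was then replaced by fresh medium with excess uridine, and labelled RNA was precipitated and sequenced at 0, 2, 4 and 7 h. For each line the labels list 4 replicate series of these time points, numbered 1_1, 1_2, 2_1 and 2_2 by their titles, and the tables give 1 decay rate per transcript and series. A positive rate means that abundance fell with time. How zeros were handled, and in which log base the rates stand, is not stated in the labels or headers, so rates are used in the deposited unit. Whether the series came from separate cultures is not stated either, and p-values cover the spread among these series alone, which may be technical. All 5 listed markers of the line (VIM, CD44, AXL, KRT18 and KRT8) had rates in both lines.

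AP-1 proteins bind DNA as dimers held together by a leucine zipper. JUN proteins pair with each other or with FOS proteins, whereas FOS proteins need a JUN partner. Growth factors and serum switch on FOS and JUN within minutes through the MAP kinases, and the mRNAs are then removed rapidly, in part through AU-rich elements in the 3′ untranslated region (3′ UTR). FOSL1, also called FRA-1, is known as a main FOS family protein of invasive breast cancer cells.

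The core of an AU-rich element is the pentamer ATTTA, and the nonamer TTATTTATT is a longer form that contains it. Both were searched on the transcript strand of the 3′ UTR in GENCODE release 29 (build GRCh38), using the transcript matched to each deposited RefSeq row. The windows of 30 bases below hold the densest ATTTA copies of the 3 FOS family members and of JUN, and are shown because they contrast the repeated copies of FOS and FOSL2 with the isolated copies of FOSL1 and JUN. Capitals mark ATTTA. The windows are listed 5′ to 3′ in the DNA alphabet of the annotation.
FOS, chr14:75282058-75282087, plus strand: tgtgtttttaATTTATTTAttaagatggat
FOSL2, chr2:28416349-28416378, plus strand: attgacATTTAttttattATTTAttttaaa
FOSL1, chr11:65892271-65892300, minus strand: agggcagctgctATTTAttttcctaaagag
JUN, chr1:58781335-58781364, minus strand: tccagaaaggatATTTAagaaaatacaata

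All 7 measured members held at least 1 ATTTA, as did 72.5% of the 10319 genes of the MDA-LM2 table with a 3′ UTR read. Among genes with 0.8 to 1.2 times the 3′ UTR length of a member, this share ran from 65.2% for FOSL1 to 99.2% for FOSL2. FOS had 5 copies in 806 bases (6.2 per kilobase), and its window above includes copies that overlap. FOSL2 had 9 copies in a much longer 3′ UTR of 4864 bases (1.85 per kilobase). JUN, ATF3 and MAFG had 3 copies each, at 2.33 to 2.87 per kilobase. FOSL1 (666 bases) and JUND (681 bases) had 1 copy each. FOS and FOSL2 were the members with the nonamer, which 8.93% of all genes held. Among genes of like 3′ UTR length (0.8 to 1.2 times), it was held by 4.08% for FOS and 23.5% for FOSL2. A match describes letters and does not show a working element.

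JUN, FOSL1, FOSL2 and MAFG decayed faster than most genes in every series of MDA-LM2. FOS, JUND and ATF3 jumped between series from fast to slow or negative rates. Of the 44 member rates, 10 lay beyond 1 either side of 0: 7 of 28 in MDA-LM2 (25%) and 3 of 16 in MDA-MB-231 (18.8%). Over all genes, 5.33% to 7.21% of rates in a series of MDA-LM2 and 19.7% to 21.1% in MDA-MB-231 lay beyond 1. FOSL1 and FOSL2 were the members with all 8 rates within 1.

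**Figure D1:**
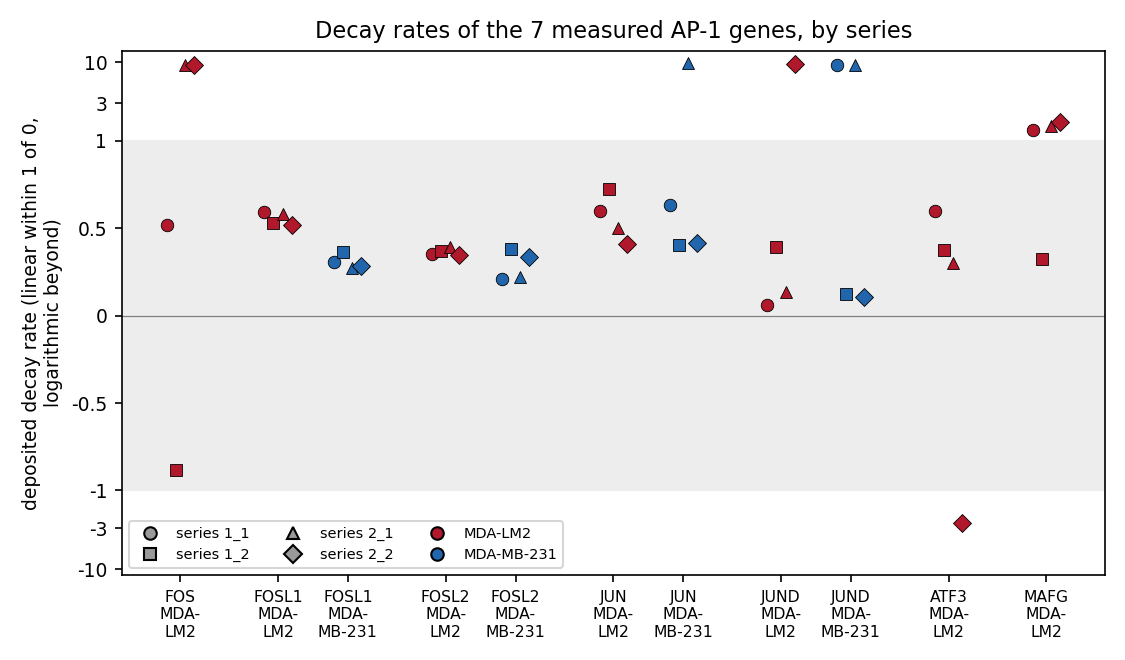
Deposited decay rates of the 7 measured members (vertical axis, linear within 1 of 0 and logarithmic beyond), with 1 symbol per series and 1 colour per line. FOSL1 and FOSL2 stay inside the grey band within 1 of 0, while FOS, JUN, JUND, ATF3 and MAFG each have at least 1 rate outside it.

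FOSL1 (RefSeq NM_005438), a FOS family protein that lacks the strong activation domain of FOS, decayed faster in MDA-LM2. Its rates in MDA-LM2 were 0.591 (series 1_1), 0.532 (1_2), 0.583 (2_1) and 0.521 (2_2), a mean of 0.557 ± 0.0354 (SD, n = 4). In MDA-MB-231 they were 0.308, 0.363, 0.272 and 0.283 in the same order, a mean of 0.307 ± 0.0407 (SD, n = 4). Every MDA-LM2 series lay above every MDA-MB-231 series, and the groups did not overlap. The difference was 0.25 (SE 0.0349, 95% interval 0.167 to 0.332, limma adjusted p = 0.00622 over 10829 genes). The SE, interval and p take the 4 series of a line as independent. By series number the difference ranged from 0.169 to 0.311, with a positive sign that already follows from the groups not overlapping. The mean rate was 1.82-fold that of MDA-MB-231.

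Genes called faster in MDA-LM2 by this fit made up 2.00% of all genes and genes called slower 6.71%. After the median of each series had been subtracted, 434 genes were called faster and 560 slower, against 217 and 727 as deposited. Among the 4 members tested, 1 was called faster (FOSL1) and 0 slower. No member was slower at an unadjusted p of 0.05, nor by the unequal-variance statistic. Over all genes, 7.08% were faster and 19.1% slower at an unadjusted p of 0.05, and the unequal-variance statistic called 1.09% faster and 4.75% slower. Rates of MDA-LM2 lay wholly above those of MDA-MB-231 in 5.61% of all genes and wholly below in 17.6%. A difference at least as large and in the same direction as that of FOSL1 was found in 108 of the 7224 genes with all 8 rates within 1 (1.5%), of which 53 were called. Over all 10829 genes it was found in 534 (4.93%).

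The median difference over all genes was -0.0539, and relative to the medians of the series the FOSL1 difference was 0.275 (limma adjusted p = 0.00679). By mean rate in MDA-LM2, FOSL1 stood at percentile 90.2 of all 11709 genes and at percentile 99.6 of the 10079 genes with all 4 rates within 1. In MDA-MB-231 it stood at percentile 60.3 of all 11485 genes and at 88.3 of 7398 genes within 1. The score in the authors' deposited table was -0.9999 for FOSL1, where a negative score marks faster decay in MDA-LM2. For FOSL2, JUN and JUND the score was -0.841, 0.595 and 0.434. Its size matched 1 minus the unadjusted p of an unequal-variance test of these same rates, so it gives no separate support.

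Within each line, series with the same second label number were more alike than other series, for a reason that was not tested. The rank correlation over the 7224 genes was 0.641 to 0.914 between such series, against 0.304 to 0.779 for other series of a line. With a correlation between them in the fit, the FOSL1 difference had a limma adjusted p of 0.0314. The call was lost with robust variance estimates (limma adjusted p = 0.0636) and with the replicate number as a block (0.0929). It was also lost when the genes within 1 of 0 were fitted alone with that correlation (0.106). The difference was 0.297 in the series with second number 1 and 0.203 in those with second number 2.

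**Figure D2:**
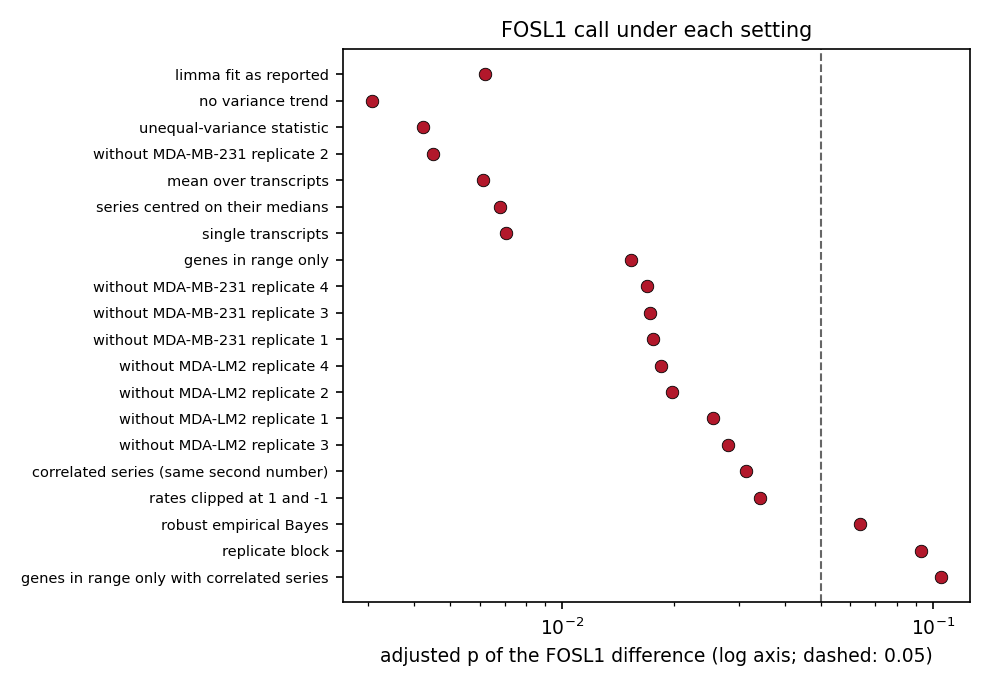
Adjusted p of the FOSL1 difference (horizontal log axis) under the reported limma fit and 19 other settings (vertical axis), where replicates 1, 2, 3 and 4 are series 1_1, 1_2, 2_1 and 2_2. The dashed line is 0.05, and 16 of the 19 settings lie to its left.

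FOSL2 (NM_005253), also called FRA-2, is the closest relative of FOSL1 in the family. Its rates in MDA-LM2 were 0.353, 0.367, 0.395 and 0.35 (series 1_1, 1_2, 2_1 and 2_2; mean 0.366 ± 0.0204, SD, n = 4). In MDA-MB-231 they were 0.209, 0.384, 0.223 and 0.334 (mean 0.287 ± 0.0852, SD, n = 4). The groups overlapped, because series 1_2 of MDA-MB-231 lay within the range of MDA-LM2, while the other 3 lay below it. The difference of 0.0792 (SE 0.0447, 95% interval -0.0263 to 0.185) did not pass (limma adjusted p = 0.283). It was 0.158 in the series with second number 1 and 9.95e-05 in those with second number 2.

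Whether FOSL1 and FOSL2 differed in how their rates changed was examined within each series, after the values had been seen. FOSL1 exceeded FOSL2 by 0.19 ± 0.0331 in MDA-LM2 but by 0.0194 ± 0.0675 in MDA-MB-231 (SD, n = 4 each). The lines did not overlap in this quantity, which ranged from 0.165 to 0.238 in MDA-LM2 but from -0.0504 to 0.0989 in MDA-MB-231. The contrast between the lines was 0.171 (two-sided exact permutation p = 0.0286, the smallest possible with 4 against 4 series). This p follows from the lack of overlap already seen when the contrast was chosen, so it gives no separate support. An offset common to all genes of a series cancels in this quantity. The test takes the series as exchangeable, although those with the same second number were more alike.

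**Figure D3:**
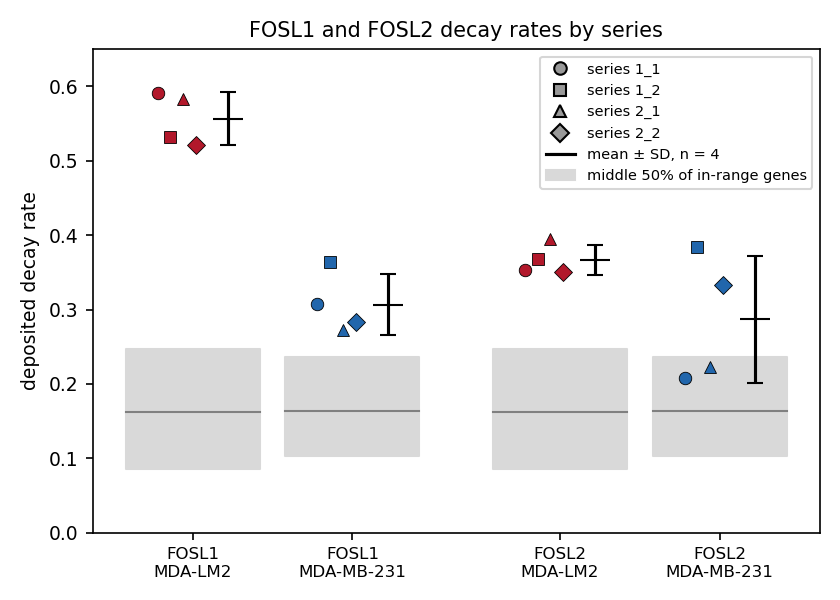
Deposited decay rates of FOSL1 and FOSL2 in each series (symbols), with mean and SD (n = 4) and, in grey, the middle 50% and median of genes with all 4 rates of the line within 1 of 0. The FOSL1 rates of MDA-LM2 lie between 0.521 and 0.591, above all others shown, and FOSL2 overlaps between the lines.

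FOS (NM_005252), the founding member and a textbook case of a short-lived mRNA, had rates of 0.519 (series 1_1), -0.881 (1_2), 9.21 (2_1) and 9.3 (2_2) in MDA-LM2. Both series with first number 2 were beyond 1 and the other pair lay on opposite sides of 0, so no mean level is read from them. Rates above 8 occurred in 1.45% to 1.91% of genes per series of MDA-LM2 and 8.71% to 9.36% in MDA-MB-231. When exactly 2 of the 4 MDA-LM2 series exceeded 8 (159 genes), they shared the first number in 13 genes and the second number in 133, and FOS was among the 13.

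JUN (NM_002228), the main partner of the FOS proteins, had rates of 0.597, 0.726, 0.5 and 0.411 in MDA-LM2 (series 1_1, 1_2, 2_1 and 2_2; mean 0.558 ± 0.135, SD, n = 4). In MDA-MB-231 they were 0.631, 0.404, 9.67 and 0.415. Series 2_1 alone was beyond 1. Series 1_1 and 2_2 lay within the range of MDA-LM2, and series 1_2 just below its lowest rate. The difference of -2.22 (SE 2.13, 95% interval -7.26 to 2.82) did not pass (limma adjusted p = 0.495). Without series 2_1 of MDA-MB-231 it changed sign to 0.0752 (limma adjusted p = 0.615). In MDA-LM2, JUN stood at percentile 90.2 of all 11709 genes by mean rate, and at percentile 99.6 of those with all 4 rates within 1.

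JUND (NM_005354), the JUN family member that is made more steadily in resting cells, had rates of 0.0586, 0.395, 0.138 and 9.51 in MDA-LM2. In MDA-MB-231 they were 9.18, 0.123, 9.21 and 0.108. There the pair of series with second number 1 was above 8 and the pair with second number 2 was low, whereas in MDA-LM2 only series 2_2 was beyond 1. The difference of -2.13 (SE 3.34, 95% interval -10 to 5.75) did not pass (limma adjusted p = 0.674). It was -9.1 in the series with second number 1 and 4.84 in those with second number 2, so its sign depended on the series used. Of the 787 genes with exactly 2 MDA-MB-231 series above 8, 651 (82.7%) shared the second number, and 320 had the pattern of JUND.

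ATF3 (NM_001030287), a stress-induced partner of JUN, had rates of 0.599, 0.378, 0.299 and -2.62 in MDA-LM2. Series 2_2 alone was beyond 1 and negative. The other 3 stood at percentiles 80.4 to 94.2 of their series, and series 2_2 at 0.734, and the mean over series (-0.336) and the median (0.338) differed in sign.

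MAFG (NM_032711), a small MAF protein without an activation domain that pairs with the CNC family factors, had rates of 1.38, 0.324, 1.54 and 1.74 in MDA-LM2. Series 1_1, 2_1 and 2_2 were beyond 1, but none was near the values above 9 seen for FOS and JUND. These 3 stood at percentiles 96.1 to 96.4 of their series and series 1_2 at 80.1.

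The members with all 4 MDA-LM2 rates within 1 were ordered JUN, FOSL1 and FOSL2 by mean rate. JUN and FOSL1 differed by less than the spread of JUN between series. All 4 rates of JUN (lowest 0.411) and of FOSL1 (lowest 0.521) exceeded the highest rate of FOSL2 (0.395). In MDA-MB-231, FOSL1 and FOSL2 overlapped.

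Of 11 measured genes of other AP-1 and related leucine zipper proteins (18 listed), limma called 0 in either direction, against 2.00% of all genes faster and 6.71% slower. At an unadjusted p of 0.05, 2 were slower and 2 faster, against 19.1% and 7.08% of all genes. The unequal-variance statistic called 1 slower: ATF6, a sensor of unfolded proteins, named after its values were seen (0.0272 to 0.0608 in MDA-LM2 against 0.0913 to 0.133 in MDA-MB-231, limma adjusted p = 0.0577). Over all genes, the unequal-variance statistic called 4.75% slower and 1.09% faster. Only 5 of the 11 had all rates within 1.

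Of 6 genes listed for the CNC partners of small MAF proteins, the 4 measured were NFE2L1, NFE2L2, NFE2L3 and BACH1. KEAP1, the listed inhibitor, was not among them. In these 4, limma called 0, with 1 slower and 1 faster at an unadjusted p of 0.05 and 0 by the unequal-variance statistic. Of 25 measured genes of the MAP kinase cascade and serum response (29 listed), limma called 0, with 3 slower and 1 faster unadjusted and 0 by the unequal-variance statistic. The median rate of these 25 genes was 0.167 in MDA-LM2 against 0.184 in MDA-MB-231. Over all genes of each line the medians were 0.176 and 0.227. Of the 25, 21 had all rates within 1. Of 5 measured genes that act in the turnover of JUN and FOS proteins (6 listed), limma called 0, with 1 faster unadjusted and 0 by the unequal-variance statistic. Median differences of these 4 lists were -0.0603, -0.0417, -0.0284 and 0.0116, against -0.0539 over all genes. The slower and faster shares of all genes were 6.71% and 2.00% by limma, and 19.1% and 7.08% unadjusted. By the unequal-variance statistic they were 4.75% and 1.09%.

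Among 19 measured AP-1 target genes (27 listed), limma called 1 faster in MDA-LM2 and 0 slower, with 1 faster and 4 slower unadjusted. Over all genes the faster and slower shares were 2.00% and 6.71% by limma, and 7.08% and 19.1% unadjusted. The faster gene was MT2A, a metallothionein that binds metal ions, with 0.167, 0.146, 0.152 and 0.135 in MDA-LM2 and 0.0237, 0.0674, 0.0329 and 0.0391 in MDA-MB-231. Its groups did not overlap (difference 0.109, SE 0.0153, limma adjusted p = 0.00632, and 0.0304 with correlated series). The median difference of the 19 genes was -0.0676, and 12 of them were lower in MDA-LM2, against 67% of all genes. Only 11 of the 19 had all rates within 1.

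Of 9 measured RNA-binding proteins of AU-rich elements (10 listed), limma called 1 faster and 1 slower, against 2.00% and 6.71% of all genes. Only 5 of the 9 had all rates within 1. ZFP36L1, which binds such elements and promotes decay, had 0.544, 0.522, 0.582 and 0.491 in MDA-LM2 and 0.369, 0.267, 0.363 and 0.314 in MDA-MB-231. The groups did not overlap (difference 0.207, SE 0.0374, limma adjusted p = 0.0183), and adjusted p = 0.0652 with correlated series. TIAL1, a binding protein of stress granules, had 0.17 to 0.285 in MDA-LM2 against 1.41 to 1.57 in MDA-MB-231 (difference -1.28, SE 0.0766, limma adjusted p = 5.91e-05), and all 4 of its MDA-MB-231 rates were beyond 1.

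The genes whose 8 rates were nearest to those of FOSL1 were ZFP36L1, DKK1 and NFKBIZ, by Euclidean distance among 7091 genes with symbols and all rates within 1. The distances were 0.16, 0.251 and 0.254. DKK1, a secreted inhibitor of Wnt signalling, had 0.487 ± 0.0801 in MDA-LM2 against 0.333 ± 0.0302 in MDA-MB-231 (SD, n = 4 each, limma adjusted p = 0.0887). NFKBIZ, a nuclear regulator of NF-kB, had 0.539 ± 0.0463 and 0.228 ± 0.0795 (SD, n = 4 each, limma adjusted p = 0.00954). Because the nearest genes were picked by these same 8 rates, their line differences resemble that of FOSL1 by selection. They give no separate support.

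**Figure D4:**
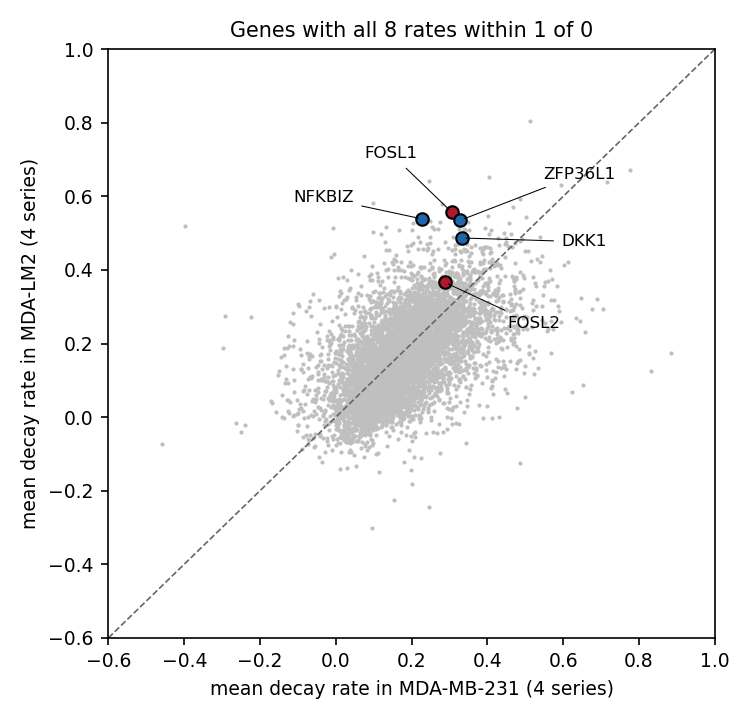
Mean decay rate over 4 series in MDA-MB-231 (horizontal) and MDA-LM2 (vertical) for the 7224 genes with all 8 rates within 1 of 0, with FOSL1 and FOSL2 in red, the nearest genes to FOSL1 in blue and the line of equal rates dashed. FOSL1 lies above the line at 0.307 and 0.557, as do its nearest genes, which were picked by these same rates. FOSL2 lies closer to the line at 0.287 and 0.366.

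Genes with more ATTTA copies in the 3′ UTR had slightly higher rates up to 5 copies. Among in-range genes the median rate was 0.122 in MDA-LM2 against 0.141 in MDA-MB-231 with no copy (1572 genes), and 0.171 and 0.176 with 3 to 5 copies (1210 genes). With 6 or more copies it was 0.149 and 0.166 (1953 genes). The 3′ UTR also lengthened with the copy number, from a median of 336.5 to 3394 bases. Genes with 1 to 2 copies, the class of FOSL1, had medians of 0.161 and 0.165 (1699 genes), and their median difference was -0.0161 against the 0.25 of FOSL1. These medians describe genes, which are not independent replicates, and were not tested.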

How the data were processed

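The authors deposited decay rates per RefSeq transcript and series, in their own unit, per the file headers. Their deposited score per transcript matched 1 minus the p of a two-sided unequal-variance test of the rates, signed by the slower line (tolerance 0.001, 12966 of 12966 transcripts). TopHat, Cufflinks and hg18 are named without versions or roles, per the submitters' processing notes. Read depth is unknown, so no interval that needs it is given.

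Rows were matched to symbols through RefSeq (assembly GRCh38.p14, 12644 rows) or GENCODE (118), and 204 kept their own identifier. A gene's rate was the median over its transcripts, and each member had 1 transcript. Coordinates of 3′ UTR windows are GRCh38, not the hg18 of the tables. The 4 against 4 rates were compared by limma 3.58.1 (R 4.3.3, variance trend, two-sided, Benjamini-Hochberg over all 10829 genes). The fit was tried on simulated in-range genes with independent series, a setting without the correlation between series seen here. Python 3.11.15 with pandas 2.3.3 and scipy 1.17.1 was used for the rest.

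The members, lists and tests were chosen with earlier results of these data known. Named genes are all members, list genes past an adjusted p of 0.05 (at most 6 a list) and the 3 genes nearest to FOSL1. In all, 19 other settings of the fit were run, 1 of them added after seeing the data. No value column was left unused.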

Additional observations from a re-analysis of the deposited data

Results flagged for a closer look

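Of the 11 groups of 4 series (7 members in MDA-LM2 against 4 in MDA-MB-231), 3 held a series far from the other 3, judged by the share of the group's range that separates it from its nearest neighbour (Dixon's 95% limit). Chance flags about 1 in 20 groups, and over all genes the limit was passed by 10.4% of MDA-LM2 groups and 17.2% of MDA-MB-231 groups. JUN in MDA-MB-231 had a share of 0.975, from series 2_1 at 9.67. JUND in MDA-LM2 had a share of 0.964, from series 2_2 at 9.51. ATF3 in MDA-LM2 had a share of 0.907, from series 2_2 at -2.62. The source of these rates was not tested.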

How the results depend on the processing

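FOSL1 stayed faster in MDA-LM2 under all settings run, which leaving out 1 series could not change because the groups did not overlap. Most other settings left its difference at 0.25 and changed only the variance estimate or the genes fitted. The FOSL1 call held in 16 of 19 settings, 8 of which left out a single series. Its difference of 0.25 missed the threshold with the replicate block, with robust variance estimates and with in-range genes fitted alone with correlated series (added after seeing the data), each of which gave 0 members called faster. Leaving out single series gave differences of 0.238 to 0.269, all called, with 1 member faster and 0 slower. Series with the same number did not deviate together between the lines (correlations -0.0373 to -0.00799 over in-range genes, and 0 of 4 series correlated best with their own number), so the numbers were not taken as pairs. In the fit with the replicate block, the FOSL1 adjusted p was 0.0929, and 250 genes were called slower and 27 faster, against 727 and 217. In that fit the adjusted p was 0.0971 for MT2A, 0.0999 for ZFP36L1 and 0.0161 for TIAL1.

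With correlated series 344 and 35 were called, and 1 and 0 with in-range genes fitted alone in that way. Centring gave 434 faster, and the unequal-variance statistic 118. Leaving out single series gave 406 to 1008 slower and 84 to 283 faster. In series with second number 1 and 2 the differences were 0.297 and 0.203 for FOSL1, 0.158 and 9.95e-05 for FOSL2, -4.6 and 0.159 for JUN, and -9.1 and 4.84 for JUND. Leaving out single series gave 0.0531 to 0.111 for FOSL2, -3.01 to 0.0752 for JUN (reversed without MDA-MB-231 series 2_1) and -4.46 to -0.612 for JUND, with no call. The median over series put ATF3 at 0.338 in MDA-LM2, against a mean of -0.336. The contrast of FOSL1 with FOSL2 ranged from 0.139 to 0.203. The cause of these changes was not tested.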
